A study of Mus musculus with 12 samples.

Results

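Among the 23420 genes counted in 12 libraries of mouse inguinal white adipose tissue (iWAT), 39 genes for keratins, cell junctions, epithelial regulators and gland products were followed library by library. They were taken from the table of read counts by gene symbol, and all 39 were found in it. The genes were chosen by their read counts in replicate 3 of the thermoneutral wild-type group, where epithelial genes had stood out from the other 11 libraries. Their level in that library therefore describes how they were selected and carries no test. The 39 were sorted by role into 5 basal, 7 luminal, 6 glandular, 6 adhesion and tight junction, 5 desmosome and 7 regulator genes and 3 genes of a membrane protease system.

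Each of the 4 groups held 3 libraries, made from iWAT of male C57BL/6 mice at 10 weeks of age. WT mice carried HIF2a loxP/loxP alleles, and HIF2α AKO mice carried those alleles together with Adipoq-Cre, which is driven by an adipocyte promoter and leaves other cell types of the depot unedited. Cre was present in HIF2α AKO mice alone, so its presence and the loss of HIF2α cannot be told apart. The thermoneutral (TN) groups were kept at 30 °C for 1 week, and the cold groups were exposed to 4 to 6 °C for 3 days. The labels do not say whether a library came from a single mouse, so p-values measure the spread between libraries, which may be technical.

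Gene counts totalled 22368316 to 35204631 per library. With 0 counts, up to 3 counts could have been missed, which is 0.0764 to 0.145 CPM depending on the library, for counting error only. CPM are counts relative to library size, after TMM scaling for library composition. Epas1, which encodes HIF2α, averaged 360 ± 76.8 CPM (SD, n = 3) in WT at TN and 627 ± 101 CPM (SD, n = 3) in WT upon cold. The HIF2α AKO libraries had 348 ± 53.8 CPM (SD, n = 3) at TN and 826 ± 139 CPM (SD, n = 3) upon cold, so that Epas1 did not show the deletion. Counts of the whole gene do not resolve its floxed part, and genotypes are given as labelled. Adipocyte genes were high throughout, as the summed level of Adipoq, Plin1, Lep, Fabp4, Cidec and Retn lay between 4195 and 27758 CPM. Skeletal muscle genes were high in TN HIF2α AKO replicate 2 and cold HIF2α AKO replicate 1, with sums of 1828 and 1563 CPM against 12.8 to 107 CPM in the other libraries.

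Keratins are filament proteins that assemble from a type I and a type II partner, and the pair in use marks the kind of epithelium: Krt5 with Krt14 in basal cells, and Krt8 with Krt18 in the luminal cells of glands and ducts. Cadherins, claudins and desmosomal proteins then join neighbouring epithelial cells. In female mice, the ducts of the mammary gland grow into the fat of the inguinal region, whereas the mice studied here were male. The inguinal fat also holds a lymph node, and adipocytes form no epithelial sheet.

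Luminal keratins, luminal transcription factors and the claudins among the members were higher in TN WT replicate 3, and low or near the detection limit in the other 11 libraries. In total, 37 of the 39 members had their highest CPM in this library, where 10.6% of all genes with any count did. Of the 36 members with at least 50 counts there, 22 were over 4-fold above the highest of the other 11 libraries, against 0.758% of all 13327 genes with that many counts. At 2-fold the number was 27 (1.19% of all genes), and at 10-fold it was 15 (0.503%). The closest to the 4-fold line were Prlr at 5.02-fold and Ocln at 5.09-fold on the upper side, and Cldn7 at 3.99-fold and Ltf at 3.47-fold on the lower side. In the other 11 libraries, the same count gave 0 members each, and between 0 and 4 genes of the whole table.

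**Figure D1:**
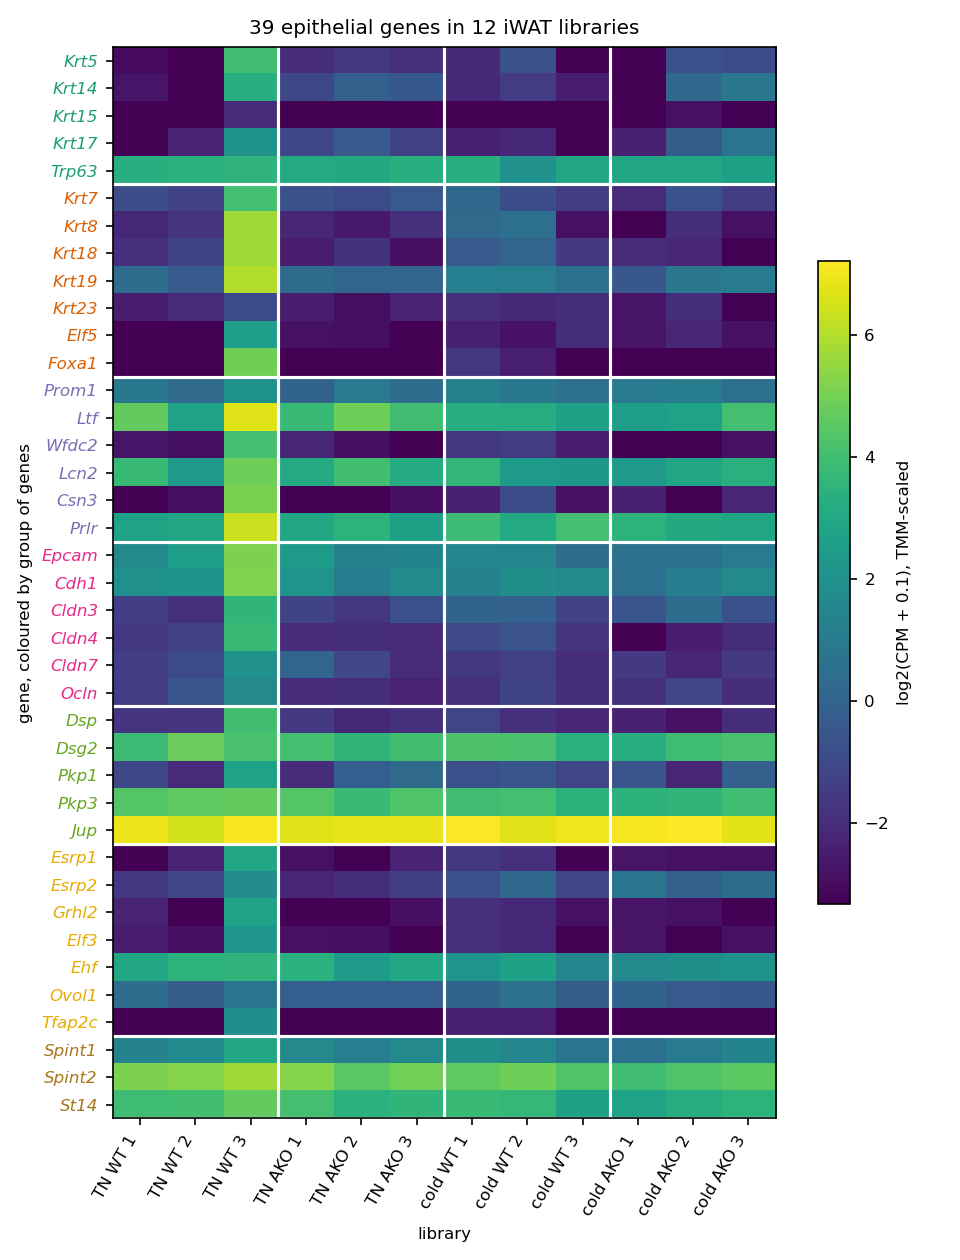
Colour gives log2(CPM + 0.1) after TMM scaling for the 39 members (one per line, coloured by their role) in the 12 libraries (columns, 3 per group). The column of TN WT replicate 3 is bright for most luminal, glandular and tight junction genes, whereas Jup, Dsg2, Pkp3, Spint2, St14, Ehf and Trp63 are bright in every column.

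Both kinds of keratin were found in TN WT replicate 3. Luminal Krt8, Krt18 and Krt19 had 1523, 1515 and 1870 counts there, or 52.0, 51.7 and 63.8 CPM. Their highest values in any other library were 1.32, 0.98 and 2.24 CPM, so that TN WT replicate 3 exceeded all others by 39.2-fold, 52.6-fold and 28.5-fold. Krt7, the type II keratin of many simple glandular epithelia, reached 16.7 CPM against at most 1.03 CPM elsewhere. Basal Krt5 had 454 counts or 15.5 CPM, which was 29.6-fold the highest other library, and its partner Krt14 had 290 counts or 9.89 CPM, which was 5.88-fold. Krt17, found in basal and in activated keratinocytes, stood at 3.99 CPM and was 2.49-fold above cold HIF2α AKO replicate 3.

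Scaled to the exon length of each gene, the order of levels in TN WT replicate 3 was Krt18 at 36.0 CPM per kb, Krt19 at 34.4, Krt8 at 26.5, Krt5 at 7.05 and Krt14 at 5.63. Krt7 had 2.37. Krt8, Krt18 and Krt19 thus stood above both basal partners in that library. The place of Krt7 depended on the length used, since its annotated exons cover 7049 bases, against 1437 to 2197 for the other 5. In CPM without that scaling, Krt7 at 16.7 stood above Krt5 at 15.5 and Krt14 at 9.89. Krt23 with 12 counts and Krt15 with 4 counts, against at most 4 counts and 1 count elsewhere, were too low to place. Trp63, the transcription factor of basal cells, did not follow the basal keratins: it had 11.4 CPM in TN WT replicate 3 and between 3.93 and 10.5 CPM in the others.

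Keratin counts are less certain than the rest because family members share sequence, and reads that aligned to several places were not counted for any gene. In the GENCODE M21 transcripts, 26.9% of the 50-base windows of Krt8 also occurred in the pseudogene Krt8-ps. For Krt14, 13.9% of windows occurred in Krt16 or Krt17, and for Krt5, 8.52% occurred in Krt6a, Krt6b, Gm5478 or Gm5414. Krt6a, Krt6b, Krt16 and Krt42 had 5 counts or fewer in every library, whereas counts of Gm5478 and Gm5414 were not examined. For Krt18 and Krt19 the shared part was 0.72% and 0%.

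Several transcription and splicing factors of epithelial cells were close to 0 outside TN WT replicate 3. Foxa1, which opens chromatin for steroid hormone receptors, had 885 counts in TN WT replicate 3, 5 in cold WT replicate 1, 2 in cold WT replicate 2 and 0 in each of the other 9 libraries. Elf5, the factor of secretory luminal cells, had 172 counts against at most 4. Tfap2c, an AP-2 factor, had 103 counts, against 2 in each of cold WT replicates 1 and 2 and 0 in the remaining 9, a ratio of 39.3 to the 2 counts of cold WT replicate 1 with a 95% counting interval from 10.6 to 329, or of 24.2 when the denominator is set to 3 counts. Esrp1, a splicing factor of epithelial cells, had 230 counts against at most 5. Grhl2, the grainyhead-like factor that maintains epithelial junction genes, had 194 against at most 4. Elf3, an epithelial ETS factor, had 131 against at most 4.

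**Figure D2:**
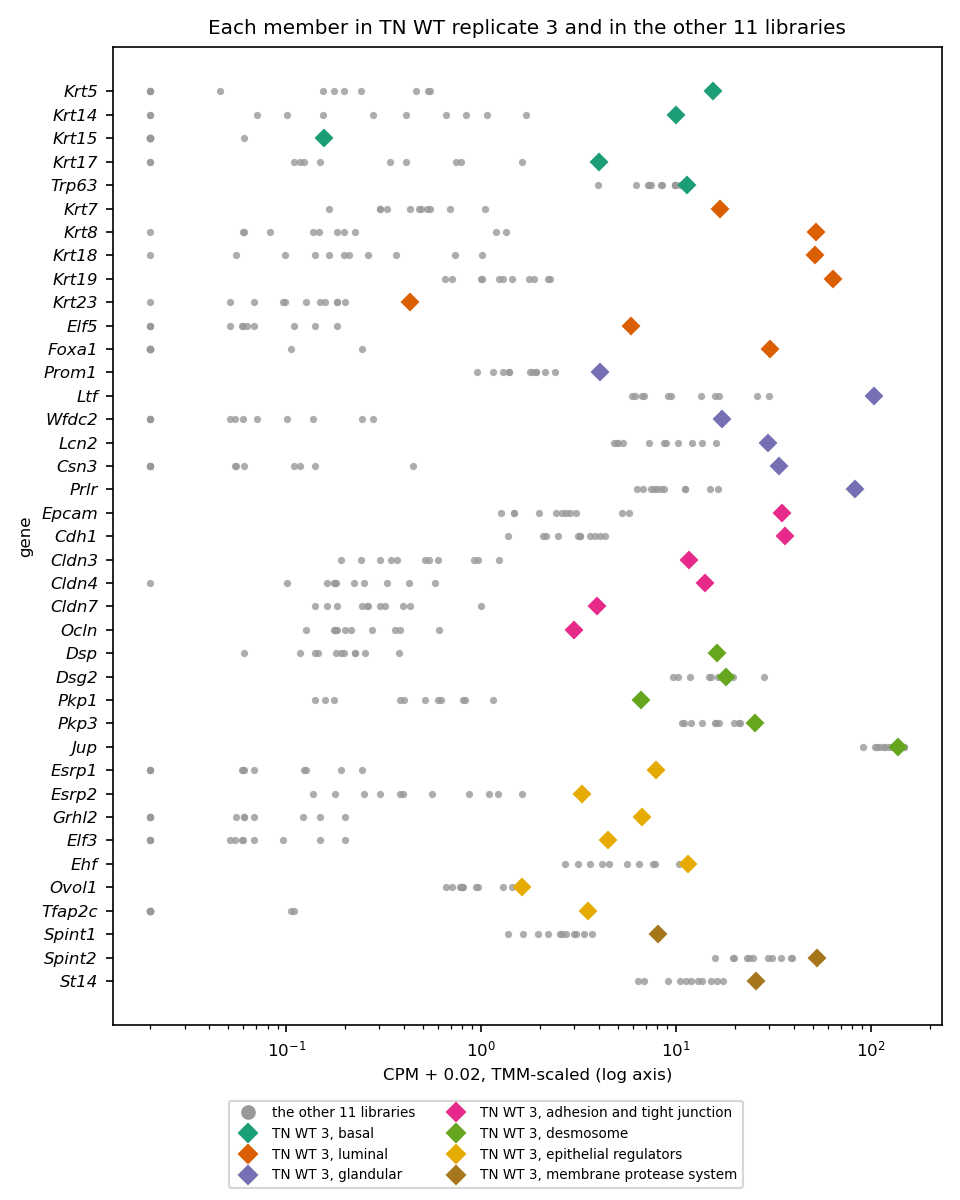
Each line is a member, with its CPM + 0.02 (TMM-scaled, log axis) in TN WT replicate 3 as a coloured diamond and in the other 11 libraries as grey points. Diamonds of Foxa1, Csn3, Wfdc2, Krt8 and Krt18 lie far to the right of the grey points, whereas those of Trp63, Dsg2, Pkp3, Jup, Ehf and Ovol1 lie among or beside them.

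Because AP-2, grainyhead, forkhead and ETS factors are among the members, their letters were searched in the RefSeq promoters of build GRCm38.p6, from 250 bases before to 50 bases after each start, on both strands. Of the 39 members, 23 had a promoter in that table. The AP-2 letters GCCNNNGGC were in 8 of the 23 members (34.8%) and in 18.6% of all 27025 genes. The AP-1 letters TGANTCA were in 4 members (17.4%, against 8.97% of all genes), and the forkhead letters TGTTTAC in 2 (8.70%, against 4.05%). The ETS letters GGAAGT were in 6 members (26.1%, against 26.6%), the letters TATAAA in 1 (4.35%, against 15.7%), and the grainyhead letters AACCGGTT in 0 (against 0.17%). The motifs were searched separately, so that matches may overlap. These are matches of letters, not sites of binding. For the 6 members with the AP-2 letters that were over 4-fold higher in TN WT replicate 3, 30 bases around 1 match each follow, 5′ to 3′ on the gene's strand, with the AP-2 letters in capitals.
Krt7, chr15:101412323-101412352, plus strand: gagaaaggtgGCCAGCGGCcagccccgccc
Krt18, chr15:102028123-102028152, plus strand: cgatcctggcGCCCCCGGCtccggtggctg
Wfdc2, chr2:164562735-164562764, plus strand: tgtcgcctctgcttgctgGCCGCTGGCctc
Cldn3, chr5:134986227-134986256, plus strand: agtctccaaaGCCACAGGCaggtgcagggg
Ocln, chr13:100552527-100552556, minus strand: ccagcgcacaGCCCCGGGCgggttcggcca
Dsp, chr13:38151209-38151238, plus strand: ggggagggcgGCCCCAGGCgtcggtgacac

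Glandular genes fell into those found in TN WT replicate 3 and those present in all libraries. Csn3, the kappa casein of milk, had 987 counts in TN WT replicate 3 and at most 10 elsewhere. Wfdc2, a secreted antiprotease of ductal epithelia, had 503 counts against at most 6. Ltf, the iron-binding lactoferrin of milk and of neutrophil granules, had 103 CPM in TN WT replicate 3, but also 25.9 CPM in TN WT replicate 1 and 29.7 CPM in TN HIF2α AKO replicate 2, and between 5.91 and 16.5 CPM in the remaining 9. Lcn2, an iron-siderophore carrier of the same granules, had 29.5 CPM against 4.75 to 16.0 CPM. The 8 neutrophil genes S100a8, S100a9, Ngp, Camp, Mmp8, Mmp9, Cxcr2 and Retnlg summed to 118 CPM in TN WT replicate 3 and to between 77.0 and 291 CPM elsewhere, with the highest values, 291 and 255 CPM, in TN HIF2α AKO replicate 2 and TN WT replicate 1. None of these 8 genes was highest in TN WT replicate 3. Prlr, the prolactin receptor, had 82.2 CPM against 6.29 to 16.4 CPM, and Prom1, the membrane protein prominin 1, had 4.06 CPM against 0.93 to 2.37 CPM.

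Of the adhesion and tight junction genes, 5 of 6 were over 4-fold in TN WT replicate 3. Epcam, the epithelial adhesion molecule, had 1025 counts against at most 166, and Cdh1, the cadherin of epithelial adherens junctions, at 36.1 CPM against 1.36 to 4.29 CPM. Among the claudins, which seal the space between cells, Cldn4 had 413 counts against at most 13 and Cldn3 had 340 against at most 30. Cldn7 had 3.89 CPM against at most 0.97 CPM. Ocln, the occludin strand protein, had 87 counts against at most 17.

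Desmosome genes were split. Dsp, the plakin that ties keratin to the desmosome, had 472 counts in TN WT replicate 3 and at most 8 elsewhere, and Pkp1, a plakophilin of stratified epithelia, had 193 against at most 32. Jup, a plakoglobin shared with other cell types, ranged from 90.4 to 148 CPM over the other 11 libraries and was 137 CPM in TN WT replicate 3. Dsg2, a desmosomal cadherin, had 17.9 CPM there and 28.2 CPM in TN WT replicate 2. Pkp3 reached 25.2 CPM against up to 24.9 CPM in TN WT replicate 2. For Jup, Dsg2 and Pkp3, TN WT replicate 3 thus lay inside or at the edge of the range of the other libraries.

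The membrane protease system had 0 of 3 members over 4-fold. Spint1 and Spint2, the Kunitz inhibitors of matriptase, had 8.02 and 52.5 CPM in TN WT replicate 3, against at most 3.67 and 39.2 CPM. St14, which is matriptase itself, had 25.5 CPM against at most 17.3 CPM. Of the remaining regulators, Ehf had 11.4 CPM against at most 11.1 CPM, Ovol1 had 1.60 CPM against at most 1.41 CPM, and Esrp2 had 3.28 CPM against at most 1.60 CPM.

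**Figure D3:**
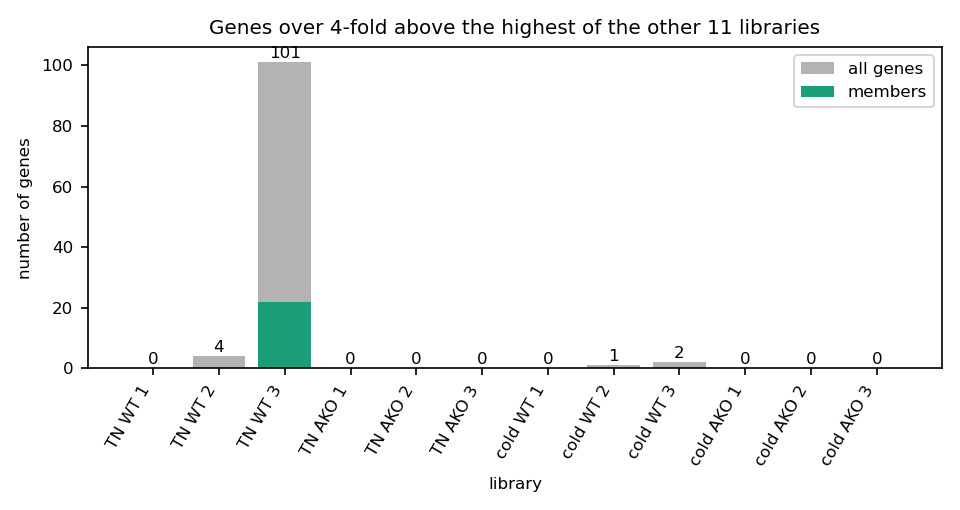
Bars give, for each library, the number of genes with at least 50 counts there that exceeded the highest of the other 11 libraries by over 4-fold, with all genes in grey and members in green. TN WT replicate 3 has 101 genes, of which 22 are members, and every other library has 4 or fewer, none of them a member.

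Other epithelial genes were read from lists kept beside the members. Of the 101 genes over 4-fold in TN WT replicate 3, 10 belonged to these lists, which held 133 genes, and 69 to no list. Over all genes with at least 50 counts there, the share was 0.758%. Milk and luminal secretory genes were uneven: Btn1a1, the butyrophilin of milk fat, had 469 counts against at most 2, and Lalba, the alpha-lactalbumin of lactose synthesis, had 109 against at most 12, whereas Wap and Csn2 had 0 counts and Csn1s1 and Csn1s2a 1 count each. The progesterone receptor gene Pgr had 230 counts against at most 5, whereas Esr1 had 28.5 CPM, inside the range of 18.7 to 47.6 CPM. Of the 7 genes for myoepithelial contraction, all with at least 50 counts, none was over 4-fold, and 7 are too few to read beside 0.758%. The nearest was Cnn1, the calponin of contractile cells, with 14.2 CPM against at most 3.94 CPM. Col17a1, the hemidesmosome collagen of basal cells, had 9.48 CPM against at most 2.02 CPM. Of the 12 tight junction genes that are not members, 10 had at least 50 counts and 2 were over 4-fold. Tjp1, in contrast, had 114 CPM against 80.0 to 110.5 CPM and F11r 74.0 CPM against 43.6 to 73.3 CPM. The other listed genes over 4-fold were Muc15, the tight junction genes Cgn and Marveld3, the desmosome gene Perp, and the regulators Rab25 and Prom2.

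Most genes of skin and surface epithelia were too low for the 4-fold rule. At least 50 counts in TN WT replicate 3 were held by 3 of 13 genes for the cornified epidermis and 0 of 12 for hair. For the sebaceous gland these were 3 of 6, and for mesothelium 1 of 5. None of them was over 4-fold, where 0.758% of all genes with that many counts were, so the lists are too short to read this. Krt1, the suprabasal keratin of epidermis, had 1 count, against at most 1 elsewhere, and Krt2, Flg2, Dsc1 and Casp14 had 0 in every library. The 3 epidermal genes with at least 50 counts lay inside the range of the other libraries. Tgm1 had 17.0 CPM against 11.2 to 30.6 CPM, and Sbsn had 16.8 CPM against 15.2 to 34.3 CPM. Krt10 had 3.31 CPM against 1.64 to 4.59 CPM. The 12 hair genes summed to 0.24 CPM against 0.13 to 0.40 CPM elsewhere. Msln, the mesothelial surface protein, had 2 counts, and Lrrn4 of the same list had 1.98 CPM against 1.20 to 6.03 CPM. Xist, transcribed from the inactive X chromosome, had 1 count in TN WT replicate 3 and at most 12 elsewhere, whereas genes of the Y chromosome were present in every library. Ddx3y had 72.1 CPM in TN WT replicate 3 against 85.4 to 126 CPM and Uty 23.0 CPM against 23.8 to 35.9 CPM, the lowest of the 12 libraries, whereas Kdm5d and Eif2s3y, with 45.3 and 64.8 CPM, lay inside the range of the others.

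**Figure D4:**
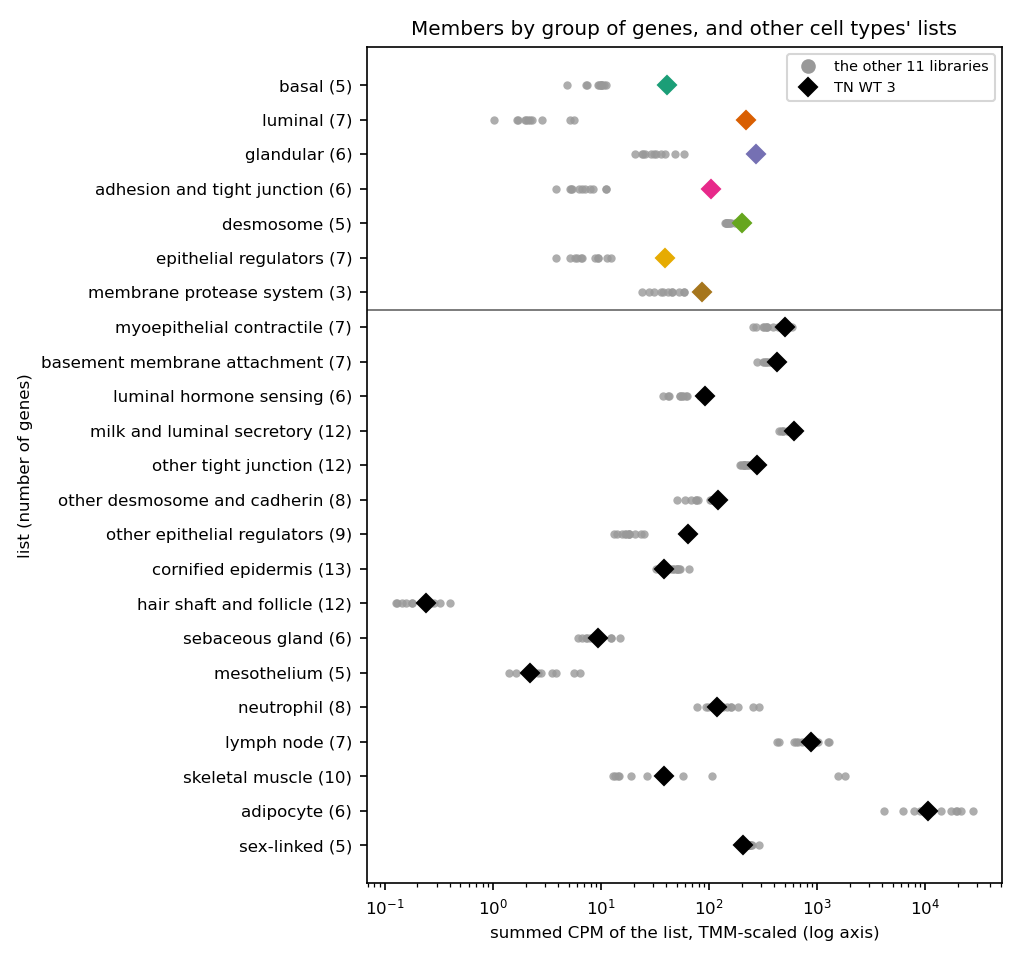
Each line sums the CPM of a list (log axis) in TN WT replicate 3 (diamond) and in the other 11 libraries (grey points), with the members' own groups above the rule and other lists below it. The luminal diamond lies at 221 CPM against at most 5.64 CPM. Diamonds for epidermis, hair, sebaceous gland, mesothelium, neutrophil, lymph node, muscle and adipocyte genes lie inside the range of the grey points. So do the diamonds for milk and luminal secretory, myoepithelial contractile, and other desmosome and cadherin genes.

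Outside every list, the 15 genes with the largest ratio of TN WT replicate 3 to the other libraries also included factors and secreted products of epithelia. Atp6v1b1, a proton pump subunit of acid-secreting epithelial cells, had 585 counts against at most 5, and Foxi1, the transcription factor of such cells, had 122 against at most 3. Fcgbp, a mucus protein, had 2566 counts and Clca2, a surface protein of epithelia, had 2144, each against at most 34. Tfap2b, another AP-2 factor, had 246 counts against at most 4. Wnt7b, a secreted ligand, had 143 and Serpinb5, the serpin maspin, had 137, each against at most 2. The others were Tspan1, Tmprss2, Vtcn1, Fam25c, Fgg, Ccdc129, Wfdc18 and Pof1b, with 104 to 456 counts in TN WT replicate 3 and at most 9 elsewhere.

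Low keratin counts in the other 11 libraries were not spread evenly. Krt8 had 26, 31 and 1 counts in cold WT replicates 1 to 3, 0, 4 and 1 in cold HIF2α AKO, 3, 2 and 5 in TN HIF2α AKO, and 5 and 6 in TN WT replicates 1 and 2. Krt18 followed with 16, 23 and 6 counts in cold WT against 3, 3 and 0 in cold HIF2α AKO. Cold WT replicates 1 and 2 were thus the highest for both partners after TN WT replicate 3, and they also held the few counts of Foxa1 and Tfap2c seen outside it. Summed over Krt7, Krt8, Krt18 and Krt19, they reached 2.79% and 2.69% of the level in TN WT replicate 3, and the other 9 libraries lay between 0.50% and 1.38%.

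Outside TN WT replicate 3, the basal keratins Krt14 and Krt17 were highest in other libraries than Krt8 and Krt18. Krt5 was highest in cold HIF2α AKO replicate 2 at 0.523 CPM, nearly level with 0.513 CPM in cold WT replicate 2. Krt14 had 10, 26 and 18 counts in TN HIF2α AKO and 0, 26 and 42 in cold HIF2α AKO, against 2 and 0 in TN WT replicates 1 and 2 and 3, 6 and 2 in cold WT. Krt17 had 10, 23 and 9 counts in TN HIF2α AKO and 2, 19 and 40 in cold HIF2α AKO, against 0 and 3 in TN WT replicates 1 and 2 and 2, 3 and 0 in cold WT. For both genes, the TN groups did not overlap once TN WT replicate 3 was set aside. The same held for Krt5, with 4, 7 and 5 counts in TN HIF2α AKO against 1 and 0 in TN WT replicates 1 and 2. The share of all genes that separate these few libraries in this way was not counted, so nothing is read from it. Upon cold, HIF2α AKO replicate 1 lay below the WT libraries for Krt14 and among them for Krt17. Krt5 had 3, 12 and 0 counts in cold WT and 0, 13 and 11 in cold HIF2α AKO, so that cold WT replicate 2 was level with the highest HIF2α AKO libraries. Cold HIF2α AKO replicate 2 came next to the highest in the basal sum, at 2.33 CPM, and had a luminal sum of 2.53 CPM, after cold WT replicates 1 and 2. Cold HIF2α AKO replicate 3 held 12.7% of the summed Krt5, Krt14 and Krt17 level of TN WT replicate 3, but 1.17% of its luminal keratin level.

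To ask whether genotype or temperature changed these genes, the 4 groups were compared by quasi-likelihood tests in edgeR, and p-values were adjusted over all genes tested by Benjamini-Hochberg. Of the 39 members, 27 passed the filter on low counts, and 26 passed when TN WT replicate 3 was left out. The filter asks for enough counts in several libraries, so a member with low counts passes through those libraries where it is high. Because TN WT replicate 3 chose the members, the counts are given with and without it. DESeq2 returned no p for 8 of the 27 members while that library was in the fit, and its counts cover the rest. In bulk tissue, fewer cells of a type and less RNA per cell cannot be told apart.

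For HIF2α AKO against WT upon cold, edgeR called 0 of 27 members, where 0.00653% of all 15306 genes were called, and 0 were at an unadjusted p under 0.05 (2.95% of all genes). DESeq2 and limma voom called 0 as well. Without TN WT replicate 3, which lies outside this comparison but widens the shared estimate of spread, 0 of 26 were called by edgeR (0.00647% of all genes) and by DESeq2, and 4 had an unadjusted p under 0.05 in edgeR, where 3.45% of all genes did. Krt8 and Krt18 were lower in cold HIF2α AKO by a log2 fold change of -3.49 (SE 1.07) and -2.84 (SE 0.82), and Krt14 and Krt17 were higher by 2.53 (SE 1.01) and 3.47 (SE 1.08). Apart from TN WT replicate 3, Krt8 and Krt18 exceeded 10 counts only in cold WT replicates 1 and 2. Krt14 and Krt17 did so only in HIF2α AKO libraries. They passed the filter on low counts through those libraries, so nothing is read from the number of these 4 genes. All 4 had an edgeR adjusted p of 1 and so failed the correction.

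For TN HIF2α AKO against TN WT, edgeR, DESeq2 and limma voom called 0 of 27 members, where edgeR called 0.00653% of all genes, and 11 members had an unadjusted p under 0.05 in edgeR (2.91% of all genes), all lower in HIF2α AKO (1.65% of all genes in that direction). With TN WT replicate 3 left out, edgeR and DESeq2 called 0 of 26 (0.00647% of all genes in edgeR) and 2 had an unadjusted p under 0.05 in edgeR (2.53%). These were Krt14 and Krt17, with log2 fold changes of 4.22 (SE 1.45) and 3.29 (SE 1.30) and an edgeR adjusted p of 0.935 for both. Both then passed the filter on low counts through HIF2α AKO libraries, so nothing is read from their number. The direction of Krt14 and Krt17 turned with TN WT replicate 3, since the values over all libraries were -2.40 and -1.47. The median log2 fold change of the members tested was -1.62 with TN WT replicate 3 and -0.09 without it, beside 0.01 and 0.03 for all genes tested.

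In WT mice, cold against TN gave 5 of 27 members called by edgeR, all lower upon cold, where 21.3% of all genes were called in either direction and 5.68% were called lower. Nothing is read from this count, since the library that chose the members is in the comparison. These were Epcam, Ltf, Ehf, Spint2 and Pkp3, and 17 members had an unadjusted p under 0.05 (38.9% of all genes). With TN WT replicate 3 left out, edgeR called 0 of 26 members, where it called 24.1% of all genes, and 6 had an unadjusted p under 0.05 (41.4% of all genes). DESeq2 then called 3 of 26 members, namely Prlr higher and Pkp3 and Ehf lower, where it called 5197 of all 15467 genes. The median log2 fold change of the members was -2.26 with that library and 0.13 without it, beside -0.03 and -0.02 for all genes tested. The value of Epcam moved from -2.69 (SE 0.78) to -0.95 (SE 0.44). Ehf moved less, from -1.16 (SE 0.31, edgeR adjusted p 0.0254) to -1.06 (SE 0.35, edgeR adjusted p 0.0508).

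In HIF2α AKO mice, cold against TN gave 1 of 27 members called by edgeR, which was lower, where 27.0% of all genes were called and 11.5% were called lower. Without TN WT replicate 3, which is not among the compared libraries, 3 of 26 were called, where 28.8% of all genes were. At an unadjusted p under 0.05 the numbers were 4 (42.7% of all genes) and 5 (43.7%). Ehf, an ETS factor of epithelia, had 266, 178 and 215 counts at TN and 64, 89 and 103 upon cold, or 5.59 to 10.4 CPM and 3.10 to 4.13 CPM. The 3 cold values lay below all TN values, and Ehf fell with a log2 fold change of -1.12 (SE 0.32, edgeR adjusted p 0.0264). This call was lost without cold HIF2α AKO replicate 1, in which muscle genes were high, without cold HIF2α AKO replicate 2, and without TN HIF2α AKO replicate 1 or 3, where edgeR called 0 members each. Spint2 had 38.6, 23.0 and 30.9 CPM at TN and 15.7, 19.9 and 23.6 CPM upon cold, with overlap between 23.0 and 23.6 CPM. Its log2 fold change was -0.64 (SE 0.23), with an edgeR adjusted p of 0.0603 over all libraries and 0.0485 without TN WT replicate 3. Pkp3 had 21.1, 13.5 and 19.8 CPM at TN and 10.9, 11.8 and 15.8 CPM upon cold and did not pass in either fit (edgeR adjusted p 0.102 and 0.113).

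Lymphocyte genes had the same order of groups as Ehf, Spint2 and Pkp3. The lymph node list (Cr2, Fcer2a, Ms4a1, Cd79a, Cd3e and Ltb, with Ccl21a at 0 counts) summed to 1250.3, 809 and 984 CPM in TN HIF2α AKO and to 440.3, 671 and 616 CPM in cold HIF2α AKO. In WT, the sums were 1014, 1286 and 877 CPM at TN and 633, 731 and 421 CPM upon cold. TN groups stood above cold groups in both genotypes, and their part in the values of Ehf, Spint2 and Pkp3 was not tested.

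Esrp2, the partner of Esrp1 in epithelial splicing, was the member called higher upon cold in HIF2α AKO mice, once TN WT replicate 3 was left out. It had 3, 5 and 8 counts in TN HIF2α AKO and 33, 21 and 30 in cold HIF2α AKO, so the groups did not overlap. Its log2 fold change was 2.67 (SE 0.96, edgeR adjusted p 0.0598) over all libraries and 2.67 (SE 0.50, edgeR adjusted p 0.00495) without TN WT replicate 3. In WT, it had 9 and 11 counts in TN replicates 1 and 2, 96 in TN replicate 3, and 12, 25 and 9 upon cold. The difference between the genotypes in the cold response was not called (log2 difference 3.63, SE 1.28, edgeR adjusted p 1, and 1.55, SE 0.75, edgeR adjusted p 1 without TN WT replicate 3). On chromosome 8, Esrp2 spans 106130319 to 106136974 of GRCm38 on the minus strand, and its exons overlap those of Nfatc3 and 1810019D21Rik on the plus strand. The strand setting of the counting is not given in the sources used here, so their reads cannot be told apart, and Nfatc3 itself had a mean of 142 ± 10.2 CPM (SD, n = 3) at TN and 128 ± 3.66 CPM (SD, n = 3) upon cold in HIF2α AKO, a difference that was not called. The other gene, 1810019D21Rik, was too low to be tested and had the same order as Esrp2, with a mean of 0.13 ± 0.066 CPM (SD, n = 3) at TN and 0.40 ± 0.037 CPM (SD, n = 3) upon cold in HIF2α AKO, without overlap, and 1.16 CPM in TN WT replicate 3.

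For the interaction of genotype and temperature, edgeR called 0 of 27 members and 0% of all genes, and DESeq2 and limma voom called 0 members. Esrp2 was the only member with an unadjusted p under 0.05 in edgeR (2.14% of all genes). Without TN WT replicate 3, edgeR and DESeq2 called 0 of 26, and 0 had an unadjusted p under 0.05 in edgeR (1.71% of all genes).

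**Figure D5:**
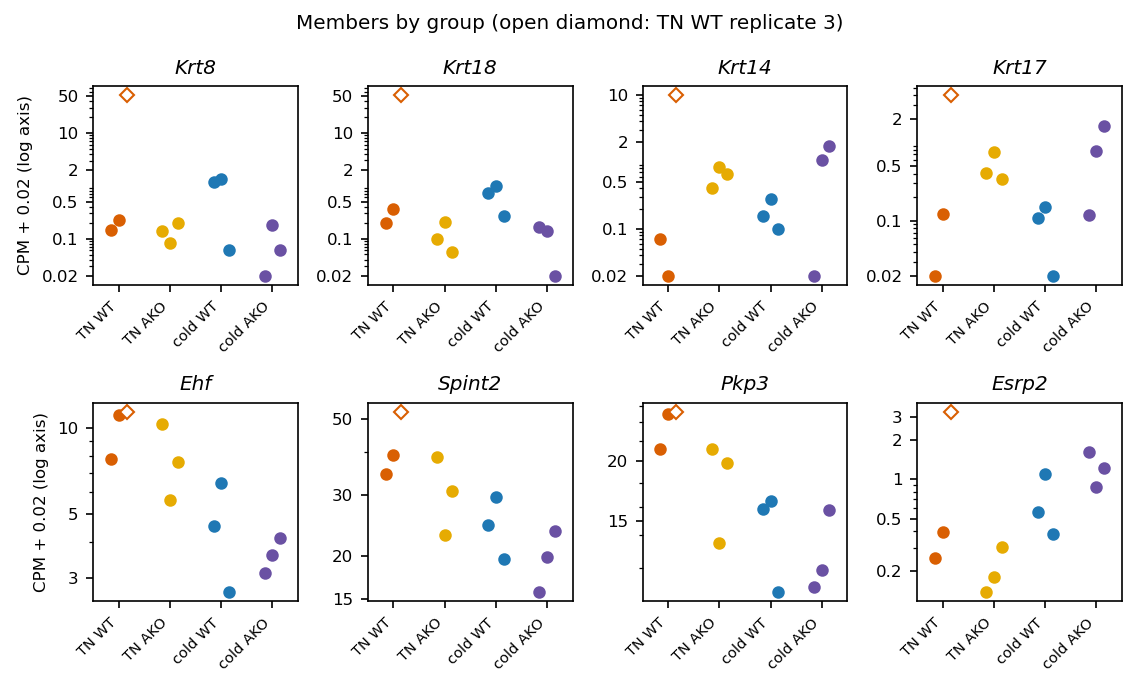
Points give CPM + 0.02 (TMM-scaled, log axes that differ between panels) of 8 members in the 3 libraries of each group, with TN WT replicate 3 as an open diamond. Krt8 and Krt18 are next highest in cold WT and Krt14 and Krt17 in the HIF2α AKO groups, Ehf, Spint2 and Pkp3 are lower in the cold groups, and Esrp2 is higher in cold than in TN HIF2α AKO.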

How the data were processed

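Read counts per gene of 12 iWAT libraries were analysed. Per the labels and methods, the authors trimmed reads with Trim Galore 0.4.4, aligned them with STAR 2.6.1d to GRCm38 and counted them with HTSeq 0.13.5, and they deposited whole counts without normalization. The strand setting and the annotation used for counting are not given in the sources used here. Between 21.9 and 27.0% of listed reads were in lines that name no gene (outside genes, ambiguous or not uniquely aligned) and were left out. Series and per-sample tables were identical for 12 of 12 libraries.

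Counts were compared with edgeR 4.0.16 in R 4.3.3 (TMM, filterByExpr with a minimum count of 10 and total of 15, 1 factor of 4 groups, quasi-likelihood test, Benjamini-Hochberg limit 0.05), which tested 15306 genes, or 15467 without TN WT replicate 3. DESeq2 1.42.0 and limma 3.58.1 (voom with sample quality weights) were alternatives. The code was tested on simulated data, in which DESeq2 called more unchanged genes than its limit allows, whereas edgeR and limma stayed near it, so larger counts of calls by DESeq2 are to be read with care. Ratios to the highest of the other 11 libraries used genes with at least 50 counts in the library described, and denominators of at least 3 counts. Members, lists and tests were chosen with earlier results of these data known. Named genes were all 39 members, examples from 16 further lists, and the 15 genes outside all lists with the largest such ratio. Some genes of these lists are not reported here and were left out of the sums. Positions and exon lengths are from GENCODE M21, in which 39 of 39 members were matched. Libraries were grouped by their labels, and replicate numbers were not used to pair libraries across groups in the main fit.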

Additional observations from a re-analysis of the deposited data

How the results depend on the processing

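The number of members over 4-fold in TN WT replicate 3 was 22 with TMM, with RLE factors and with library totals, 27 at 2-fold and 15 at 10-fold. For cold HIF2α AKO against TN HIF2α AKO, the 1 call of edgeR became 2 with upper quartile scaling and in a fit of the compared groups alone, 3 with DESeq2, 4 with limma voom and 4 at an unadjusted p under 0.05. It became 0 to 3 when each library was left out in turn, with 0 without cold HIF2α AKO replicate 1 or 2 or TN HIF2α AKO replicate 1 or 3, 3 without TN HIF2α AKO replicate 2 or TN WT replicate 3, and 2 without TN WT replicate 1 or 2. Calls over all genes moved too, from 4138 of 15306 to 4885 with upper quartile scaling, 5336 with DESeq2 and 6140 with limma voom. They were 4303 of 14940 in the compared groups alone. With each library left out they ranged from 1613 of 15486 to 4853 of 15506. For cold WT against TN WT, the 5 calls became 9 with DESeq2, 2 with limma voom, 1 in a fit of the compared groups alone, 17 at an unadjusted p, and 0 to 10 with each library left out, with 0 without TN WT replicate 3 or cold WT replicate 3, 1 without cold WT replicate 1, 3 without cold WT replicate 2, cold HIF2α AKO replicate 2 or TN HIF2α AKO replicate 3, and 10 without TN WT replicate 1. For this comparison, calls over all genes were 3259 of 15306 in the main fit, 4700 with DESeq2 and 4684 with limma voom. They were 1752 of 14975 in the compared groups alone. With each library left out they ranged from 1381 of 15506 to 3722 of 15467. The 8 members with no p in DESeq2 were Cldn3, Cldn4, Krt5, Krt7, Krt8, Krt18, Krt19 and Prlr, and there were 0 of 26 without TN WT replicate 3. The 0 calls of TN HIF2α AKO against TN WT became 11, and that of the interaction 1, at an unadjusted p under 0.05.

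With a replicate block, cold WT against TN WT gave 1 call, where 2561 of 15306 genes were called. The number of member calls in the other comparisons was the same. Of 18 same-numbered pairs of libraries, 5 had deviations correlated above 0.1, with a range from -0.43 to 0.39. Pairs of unlike number were not set beside them, so this cannot decide whether replicate numbers pair the libraries. Of the alternatives chosen after the data were seen, which left out TN WT replicate 3 as well, no filter on low counts gave 2 calls and 2 calls for cold against TN in HIF2α AKO and in WT, DESeq2 gave 4 and 3, and a replicate block gave 1 and 0. Over all genes, these fits called 4007 and 3549 of 19396, 5557 and 5197 of 15467, and 2857 and 1506 of 15467. The direction of Krt14 and Krt17 in TN HIF2α AKO against TN WT, -2.40 and -1.47, turned to 2.90 and 3.86 with limma voom and, with each library left out, ranged from -2.99 to 4.22 and from -2.08 to 3.29, positive without TN WT replicate 3 alone. It was 4.19 and 3.25 with no filter, 4.47 and 3.32 with DESeq2 and 3.83 and 3.19 with a replicate block, each without that library. The cause of the other changes was not tested. Of the 12 members that failed the filter on low counts over all libraries, Krt15 and Krt23 were low everywhere, and the other 10 had 87 to 987 counts in TN WT replicate 3 and at most 17 in any other library.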
